A study of Mus musculus with 6 samples.

Results

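The insulin-like growth factor (IGF) binding proteins are a family of 7 genes, Igfbp1 to Igfbp7, taken by symbol from the 23420 gene symbols counted in RNA of mouse tooth germs. All 7 were in the count tables, and 6 of them passed the filter on low counts that left 15284 genes for testing. Smad7-/- tooth germs (3 libraries) were compared with wild-type tooth germs (3 libraries), all from C57BL/6 embryos at E15.5. The labels name no other allele or treatment, do not say what part of Smad7 is disrupted, and do not say whether a library is 1 embryo or a pool. p-values therefore measure only the spread between these libraries. Whole germs hold epithelium, mesenchyme, vessels and blood, and fewer cells of a type cannot be told apart from less RNA per cell.

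IGF1 and IGF2 are secreted growth factors that act through a receptor tyrosine kinase, and the binding proteins, most of them with high affinity, hold them outside the cell. Binding blocks or prolongs IGF action, and proteases such as the pappalysins release the ligand by cutting the binding protein. SMAD7 acts at TGF-beta and BMP receptors to damp their signals, and TGF-beta is known to raise IGFBP3 and IGFBP5 transcripts in some kinds of cultured cells.

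The genes lie in a pattern that several of them share. Igfbp2 and Igfbp5 are neighbours on chromosome 1, with their 3′ ends facing each other across 5457 bases that hold no annotated gene (GENCODE M21, mm10). Igfbp1 and Igfbp3 are neighbours on chromosome 11 in the same arrangement, 3539 bases apart. Igfbp4 stands alone on chromosome 11 at 99041244 to 99054392, Igfbp6 on chromosome 15 at 102144362 to 102149511 and Igfbp7 on chromosome 5 at 77349240 to 77408041. Igfbp7 shares 85 of its 1209 exon bases with Polr2b on the opposite strand, and the library kit does not record strand. Polr2b, an RNA polymerase II subunit, stood at -0.11 ± 0.09 (log2 fold change, SE). The part of Polr2b reads in the Igfbp7 counts was not tested.

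The promoters of Igfbp4, Igfbp5 and Igfbp6 are shown because these are the genes whose Smad7-/- and wild-type libraries did not overlap. Each run ends just before the most upstream start that RefSeq (GRCm38.p6) or GENCODE places there, reads 5′ to 3′ on the strand of the gene, and has motif matches in capitals. For Igfbp6 the RefSeq start, 102144186, lies upstream of the GENCODE start given above. The spans are chr11:99040994-99041243 on the forward strand, chr1:72874885-72875115 on the reverse strand and chr15:102143936-102144185 on the forward strand.
Igfbp4: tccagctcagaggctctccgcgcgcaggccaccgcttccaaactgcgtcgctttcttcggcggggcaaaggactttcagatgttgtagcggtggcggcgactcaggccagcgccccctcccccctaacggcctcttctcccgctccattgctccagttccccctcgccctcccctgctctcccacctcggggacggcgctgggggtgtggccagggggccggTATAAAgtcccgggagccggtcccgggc
Igfbp5: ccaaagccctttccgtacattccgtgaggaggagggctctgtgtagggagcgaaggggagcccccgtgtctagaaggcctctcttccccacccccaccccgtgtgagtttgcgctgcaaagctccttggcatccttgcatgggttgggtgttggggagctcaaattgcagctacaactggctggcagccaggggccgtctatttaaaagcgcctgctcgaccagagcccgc
Igfbp6: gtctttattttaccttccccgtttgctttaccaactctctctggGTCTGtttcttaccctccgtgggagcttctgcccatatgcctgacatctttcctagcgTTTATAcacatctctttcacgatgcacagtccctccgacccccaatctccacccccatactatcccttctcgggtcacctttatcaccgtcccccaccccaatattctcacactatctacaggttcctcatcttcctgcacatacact
The motifs searched on both strands were TATAAA, the TATA box core; CAGAC, a short SMAD-binding box; and GGGCGG, the GC box. In the 250 bases before a RefSeq start they occurred in 12.4%, 42.2% and 32.7% of 32851 promoters. The Igfbp4 promoter held 1 TATAAA, and that of Igfbp6 held 1 TATAAA and 1 CAGAC, each read on the reverse strand. The TATAAA of Igfbp4 lay near the end of its run, close to the start, and that of Igfbp6 lay farther from the start. The Igfbp5 promoter held no exact match to the 3 motifs, nor did those of Igfbp1 and Igfbp3. Near their ends the runs of Igfbp5 and Igfbp3 held the similar stretches tatttaaaa and tatatat, which the search did not count. A missing TATAAA therefore does not show that a TATA box is absent, and the use of these stretches was not tested. GGGCGG occurred 4 times before Igfbp7 and 3 times before the more upstream of the starts of Igfbp2. CAGAC occurred 1 time before the other start of Igfbp2, so of the 7 genes 2 held it. The GC content of these 250 bases ran from 49.6% for Igfbp6 to 74.0% for Igfbp7, against a median of 52.4% over all promoters.

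Scaled by exon length, the members stood in the same order in all 6 libraries: Igfbp5, Igfbp3, Igfbp4, Igfbp2, Igfbp7, Igfbp6 and Igfbp1. Levels here are in TPM (counts per length of exon, scaled to the same total in each library). Igfbp5, which also binds matrix and bone mineral, had 2217, 2158 and 2471 TPM in Smad7-/- libraries, against 1804, 1732 and 2089 TPM in wild type. It ranked 52 of 15140 tested genes by its wild-type level per length. Igfbp3, the main carrier of IGF in serum, followed with 446 to 633 TPM in Smad7-/- libraries and 376 to 501 TPM in wild type. The step from Igfbp5 down to Igfbp3 was 4.14-fold in Smad7-/- and 4.38-fold in wild type, with no overlap in either genotype. Neighbours in the middle of the order were closer. Igfbp3 and Igfbp4 overlapped in Smad7-/- (lowest Igfbp3 446, highest Igfbp4 482 TPM) but not in wild type (376 and 353 TPM). Igfbp4 and Igfbp2 overlapped in wild type (lowest Igfbp4 282, highest Igfbp2 331 TPM) but not in Smad7-/- (425 and 330.3 TPM). Igfbp7, which binds IGFs weakly and is deposited around vessels, had 161 to 174 TPM in Smad7-/- libraries and 114 to 169 TPM in wild type. Igfbp6, which prefers IGF2, had 2.48 to 3.54 TPM in Smad7-/- libraries and 1.51 to 1.89 TPM in wild type. Igfbp1, the insulin-regulated binding protein of liver, stayed at or under 0.323 TPM in every library. In each facing pair the gene on the reverse strand, Igfbp5 or Igfbp3, was the higher in all 6 libraries.

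**Figure D1:**
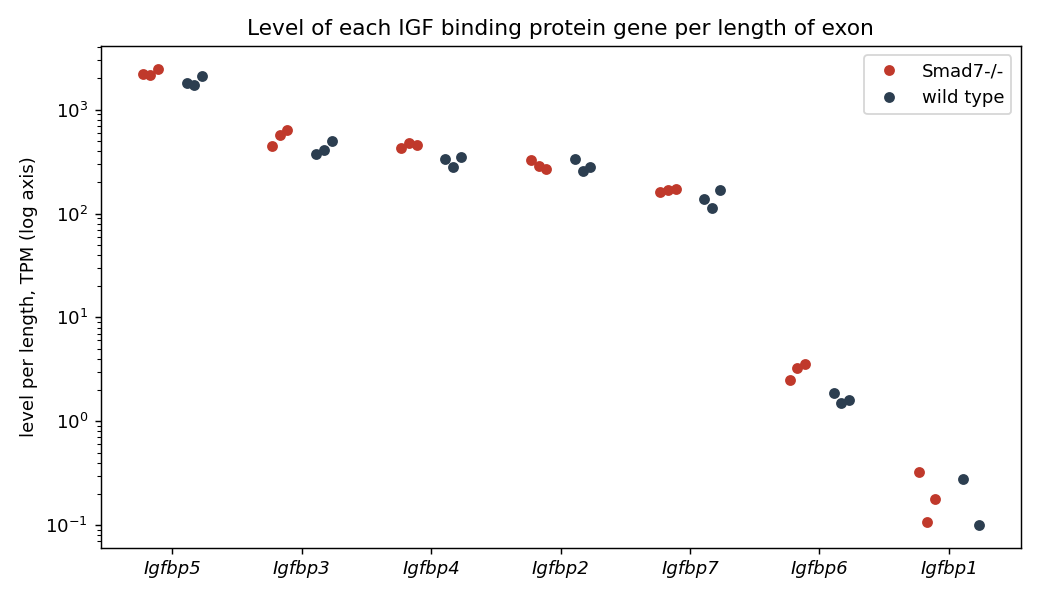
Level of each IGF binding protein gene in TPM (log axis) in every library, Smad7-/- in red and wild type in dark blue, genes ordered by their wild-type mean. Igfbp5 lies at 1732 TPM or more in every library and Igfbp1 at or under 0.323 TPM; the wild-type library without an Igfbp1 count is not drawn.

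The summed level of the 7 genes was 3582, 3672 and 4009 TPM in Smad7-/- libraries and 2985, 2796 and 3393 TPM in wild type. Every Smad7-/- library was above every wild-type library, and the ratio of the means was 0.296 on the log2 scale. Igfbp5 made up 60.8 ± 1.74% of the sum in Smad7-/- and 61.3 ± 0.791% in wild type (SD, n = 3 each), so most of the sum is this gene. Igfbp2 made up 7.94 ± 1.23% in Smad7-/- and 9.54 ± 1.44% in wild type. Igfbp4 made up 12.1 ± 0.893% in Smad7-/- and 10.6 ± 0.586% in wild type.

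None of the 6 tested members passed an adjusted p of 0.05 in edgeR, where 0.0262% of all tested genes passed (0.0131% on the higher side). DESeq2 and limma-voom also called 0 members, with 0.311% of genes called by DESeq2. At an unadjusted p under 0.05 edgeR had 3 members, Igfbp3, Igfbp4 and Igfbp6, all on the higher side, where 5.14% of genes lay at that level and 3.26% on its higher side. All 3 Smad7-/- libraries lay above all 3 wild-type libraries for Igfbp4, Igfbp5 and Igfbp6, 3 of 6 members, where 4.97% of tested genes did so (8.88% in either direction). The 6 log2 fold changes were all above 0, with a median of 0.30, beside 49.1% of all tested genes above 0 and a median of -0.0028. Igfbp2 was among them at 0.01 ± 0.13 SE, and its sign turned under 4 of 16 alternatives. The other tested members varied together across the libraries, so these are not 6 separate observations.

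Igfbp4, known as an inhibitor of IGF action that the protease PAPP-A removes, had the smallest p of the members. Its values were 507, 601 and 515 CPM (counts scaled to library size) in Smad7-/- libraries, against 412, 331 and 425 CPM in wild type. The lowest Smad7-/- library was 1.19 times the highest wild-type library. The fold change was 1.39 (log2 0.47 ± 0.12 SE; edgeR adjusted p = 0.608), and the DESeq2 adjusted p was 0.0591. Leaving out 1 library gave log2 values from 0.37 to 0.54.

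Igfbp5, the most abundant member, had 3595, 3663 and 3793 CPM in Smad7-/- libraries, against 3017, 2762 and 3427 CPM in wild type. The groups did not overlap, but the gap was narrow, the lowest Smad7-/- library being 1.05 times the highest wild-type library. The log2 fold change was 0.26 ± 0.12 SE (edgeR adjusted p = 0.967). The means were 3683 ± 101 CPM in Smad7-/- and 3069 ± 336 CPM in wild type, and per length 2282 ± 166 TPM in Smad7-/- and 1875 ± 189 TPM in wild type (SD, n = 3 each), so the narrower spread in Smad7-/- held in CPM more than in TPM.

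Igfbp3 had 377, 507 and 507 CPM in Smad7-/- libraries, against 328, 339 and 428 CPM in wild type. Smad7-/- library 1 lay below wild-type library 3, so the groups overlapped. The log2 fold change was 0.35 ± 0.14 SE (edgeR adjusted p = 0.905).

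Igfbp2, an abundant binding protein of fetal tissues, had 165, 150.4 and 128 CPM in Smad7-/- libraries, against 170.4, 127 and 141 CPM in wild type. The groups covered nearly the same range. The log2 fold change was 0.01 ± 0.13 SE (edgeR adjusted p = 1.00), and 2 SE to either side ran from -0.24 to 0.27. Its sign turned when the split of the libraries described below was a covariate (-0.09) and in some fits without 1 library (-0.08 to 0.13).

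Igfbp7 had 52.7, 57.5 and 53.7 CPM in Smad7-/- libraries, against 46.2, 36.7 and 55.7 CPM in wild type. The groups overlapped through wild-type library 3, and wild-type library 2 was the lowest. The log2 fold change was 0.24 ± 0.14 SE (edgeR adjusted p = 0.999), and leaving out wild-type library 2 gave 0.10, leaving out wild-type library 3 gave 0.40.

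Igfbp6 had the largest fold change of the 6 tested members at the lowest level. Its counts were 28, 45 and 58 in Smad7-/- libraries, against 30, 22 and 23 in wild type. Scaled to library size these were 0.745, 1.04 and 1.01 CPM in Smad7-/- and 0.585, 0.445 and 0.482 CPM in wild type, without overlap. The fold change was 1.84 (log2 0.88 ± 0.34 SE; edgeR adjusted p = 0.864). Counting alone gives an error of 21.3% at its lowest count, against 0.272% at the lowest count of Igfbp5; these errors cover counting only, because reads that carry no molecular identifier can be copies of 1 molecule.

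Igfbp1 had 5, 2 and 4 counts in Smad7-/- libraries, against 6, 0 and 2 in wild type, and was not tested. The library with 0 counts allows up to 3, or 0.0607 CPM, and a difference between genotypes was not detectable at this depth.

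**Figure D2:**
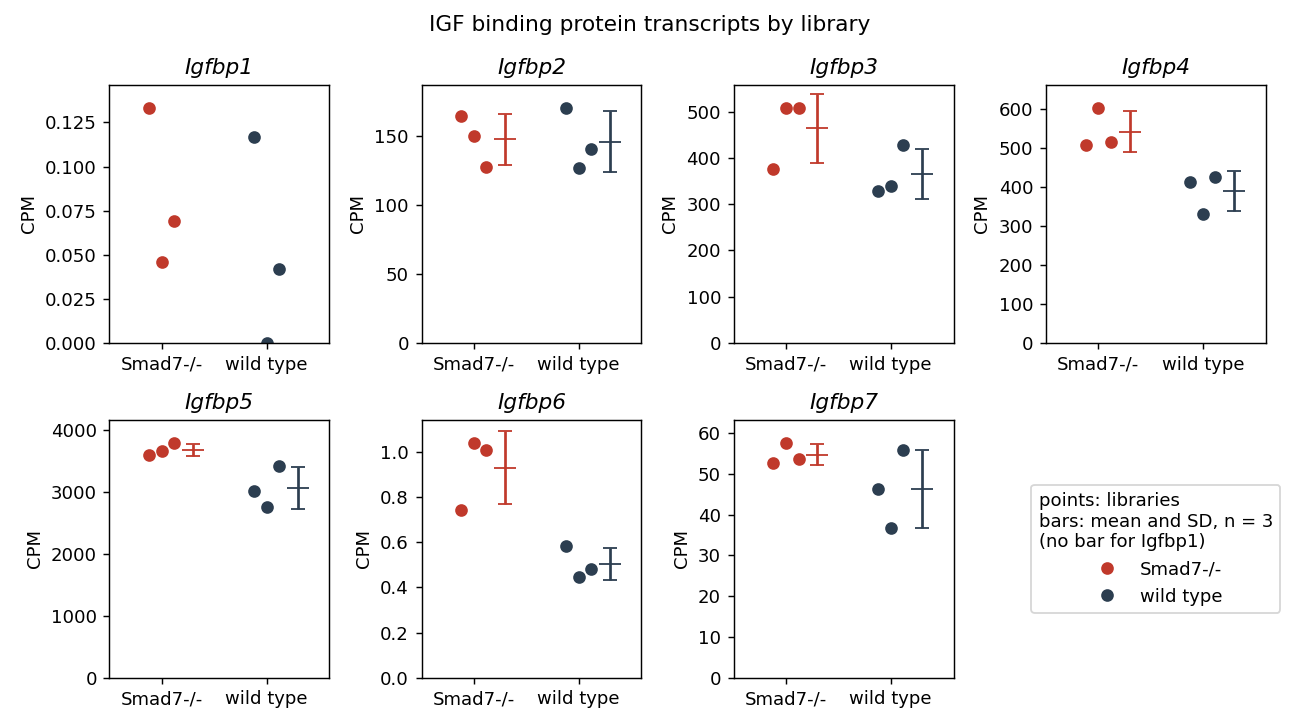
CPM of each member in every library (points), with the mean and SD of 3 libraries beside them except for Igfbp1, Smad7-/- in red and wild type in dark blue; each axis starts at 0. The groups are apart for Igfbp4, Igfbp5 and Igfbp6 and overlap for the other 4 genes.

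Across the 6 libraries the tested members other than Igfbp2 varied together. As a description, Pearson's r of log2(CPM + 0.5) among these 5 genes ran from 0.637 (Igfbp6 and Igfbp7) to 0.916 (Igfbp5 and Igfbp7). It was 0.906 between Igfbp4 and Igfbp5 and 0.842 between Igfbp3 and Igfbp5. The added 0.5 is about as large as the level of Igfbp6 in wild type, 0.445 to 0.585 CPM, so values of r for Igfbp6 depend on it. For Igfbp2 with the other 5 tested members r ran from -0.344 to 0.277. Each r rests on 6 points, 3 of each genotype, so the difference between genotypes is part of it, and genes of 1 library share that library's depth and makeup. Among 10842 genes of at least 5 CPM, those most like Igfbp7 were Fli1 (r = 0.997), Emcn (0.994) and Esam (0.988), an endothelial transcription factor and 2 endothelial surface proteins. The 10 endothelial markers summed to 409, 434 and 451 CPM in Smad7-/- libraries, with 10 of 10 above 0 in log2 fold change. In wild type they summed to 394, 294 and 439.9 CPM, lowest in wild-type library 2, as Igfbp7 was. Emcn and Esam are among these 10 markers, so the likeness and the shared low point are not separate observations. The part of these cells in the Igfbp7 values was not tested. Closest to Igfbp4 were Eva1a (0.998), Tmem119 (0.995), known from bone-forming cells and microglia, and Gja4 (0.989), a connexin of arteries. Closest to Igfbp5 were Ndnf (0.994), a secreted glycoprotein, Vasn (0.994), a TGF-beta-binding membrane protein, and Thsd7a (0.991). Closest to Igfbp3 were Thbd (0.981), the thrombin receptor of endothelium, Maged2 (0.976) and Ncald (0.976). Closest to Igfbp6 were Trabd2b (0.994), H19 (0.986), the imprinted RNA next to Igf2, and Ppp1r18 (0.978). Closest to Igfbp2 were Mrs2 (0.995), a mitochondrial magnesium channel, Jmjd6 (0.994) and Srd5a1 (0.990). With so few libraries high values are common: 19 genes for Igfbp6 to 70 for Igfbp5 had r over 0.95.

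Other values of the libraries bear on these results. Depth was 37591888 to 56575476 counts in Smad7-/- and 47800685 to 52137318 in wild type. Smad7 had 41 to 80 counts in Smad7-/- libraries and 859 to 1097 in wild type, so each library matched its label. The first principal component held 36.4% of the variance and set Smad7-/- libraries 1 and 2 with wild-type library 1 (the first set) apart from Smad7-/- library 3 with wild-type libraries 2 and 3 (the second set). Smad7-/- library 3 and wild-type library 1 carried Xist, the marker of female cells. Within the first and second sets the differences in log2 CPM were 0.42 and 0.46 for Igfbp4, 0.27 and 0.30 for Igfbp5, 0.42 and 0.41 for Igfbp3, 0.59 and 1.12 for Igfbp6, 0.25 and 0.25 for Igfbp7, and -0.11 and -0.07 for Igfbp2. Defining markers of tooth were present, with 10 of 10 dental epithelium and 10 of 10 dental mesenchyme genes tested. The epithelium list summed to 8784 to 10481 CPM in Smad7-/- and 10237 to 11299 CPM in wild type, with 1 of 10 members above 0 in log2 fold change. The mesenchyme list summed to 528 to 567 CPM in Smad7-/- and 442 to 512 CPM in wild type, with 9 of 10 above 0. Smooth muscle and pericyte markers summed to 646 to 743 CPM in Smad7-/- and 502 to 603 CPM in wild type (10 of 10 above 0), and macrophage markers to 201 to 219 CPM in Smad7-/- and 118 to 163 CPM in wild type (9 of 10). All 3 Smad7-/- libraries lay above all 3 wild-type libraries for 7 of 10 mesenchyme and 8 of 10 macrophage markers. That held for 1 of 10 smooth muscle and pericyte, 1 of 10 endothelial and 0 of 10 epithelium markers, beside 4.97% of tested genes. Smad7-/- libraries all lay below wild type for 2 epithelium markers. No marker of these 4 lists or of the endothelial list was at 0 in all 6 libraries. Their part in the Igfbp values was not tested. Red blood cell markers summed to 44.9 to 55.1 CPM in Smad7-/- and 68.4 to 94.5 CPM in wild type (0 of 4 tested above 0, Hba-a1 and Hba-a2 listed at 0 throughout). Only 7 of these 10 markers were in the count tables, without Hbb-bs, Hbb-bt and Epb42. Hbb-y stayed under 1 CPM, so this sum holds almost no globin and is no measure of blood content. Skeletal muscle markers summed to 5.80 to 7.57 CPM in Smad7-/- and 8.21 to 9.40 CPM in wild type (1 of 7 tested above 0, none at 0 throughout). Of these markers Myod1, Myog, Actc1, Myh3, Myh8, Tnnt3 and Ckm stayed under 1 CPM in every library, so most of the list lay near the floor. The bone and odontoblast, cartilage, Schwann cell and liver lists overlapped between genotypes. In the list for liver, where Igfbp1 is mainly made, 9 of 10 markers stayed under 1 CPM, with Fgb and Tat at 0 throughout. The liver list summed to 8.63 CPM in Smad7-/- library 2, against 0.958 and 0.746 CPM in Smad7-/- libraries 1 and 3. In wild type it summed to 0.586 to 1.5 CPM.

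Of the IGF axis list, which holds ligands, receptors, pappalysins, stanniocalcins and adaptors, 15 of 17 genes were tested; 1 was called higher and 0 were called lower, where 0.0131% of all tested genes were called higher. At an unadjusted p under 0.05, 4 lay higher and 0 lower, beside 3.26% of all genes higher. The median log2 fold change was 0.07, beside -0.0028 over all tested genes. The ligand gene Igf2 had 584, 716 and 778 CPM in Smad7-/- libraries, against 516, 497 and 556 CPM in wild type, without overlap (log2 0.41 ± 0.12 SE; edgeR adjusted p = 0.696). Igf1, named after its values were seen, overlapped, at 184 ± 37.7 CPM in Smad7-/- and 134 ± 42.8 CPM in wild type (SD, n = 3 each; log2 0.46 ± 0.23 SE). Its log2 value was 0.28 when Smad7-/- library 3 was left out and 0.75 when wild-type library 3 was. Per length, Igf2 stood at 451 ± 77.1 TPM in Smad7-/- and 335 ± 17.5 TPM in wild type, and Igfbp5 was above this ligand gene in all 6 libraries. The receptor gene Igf1r was at 0.07 ± 0.09 and the adaptor genes Grb10 and Irs2 at 0.27 ± 0.18 and -0.09 ± 0.14 (log2 fold change, SE); leaving out Smad7-/- library 3 took Grb10 to 0.05.

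Pappa2, whose product cuts IGFBP3 and IGFBP5, was the gene that passed. It had 24.9, 27.5 and 29.3 CPM in Smad7-/- libraries, against 11.9, 9.26 and 12.3 CPM in wild type (log2 1.29 ± 0.14 SE; edgeR adjusted p = 0.0149). The call ended without Smad7-/- library 1 or 2 or wild-type library 1, with adjusted p of 0.0674, 0.191 and 0.0566 and log2 values of 1.35, 1.29 and 1.34. Its relative Pappa, which cuts IGFBP4 and was named after its values were seen, had 4.10, 2.83 and 5.66 CPM in Smad7-/- libraries, against 2.18, 2.04 and 2.81 CPM in wild type. The groups were apart by a small margin (log2 0.84 ± 0.28 SE; edgeR adjusted p = 0.796). Per length Pappa2 stood at 9.86 ± 1.15 TPM in Smad7-/- and 3.97 ± 0.517 TPM in wild type (SD, n = 3 each), below Igfbp3 and Igfbp5 in every library.

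**Figure D3:**
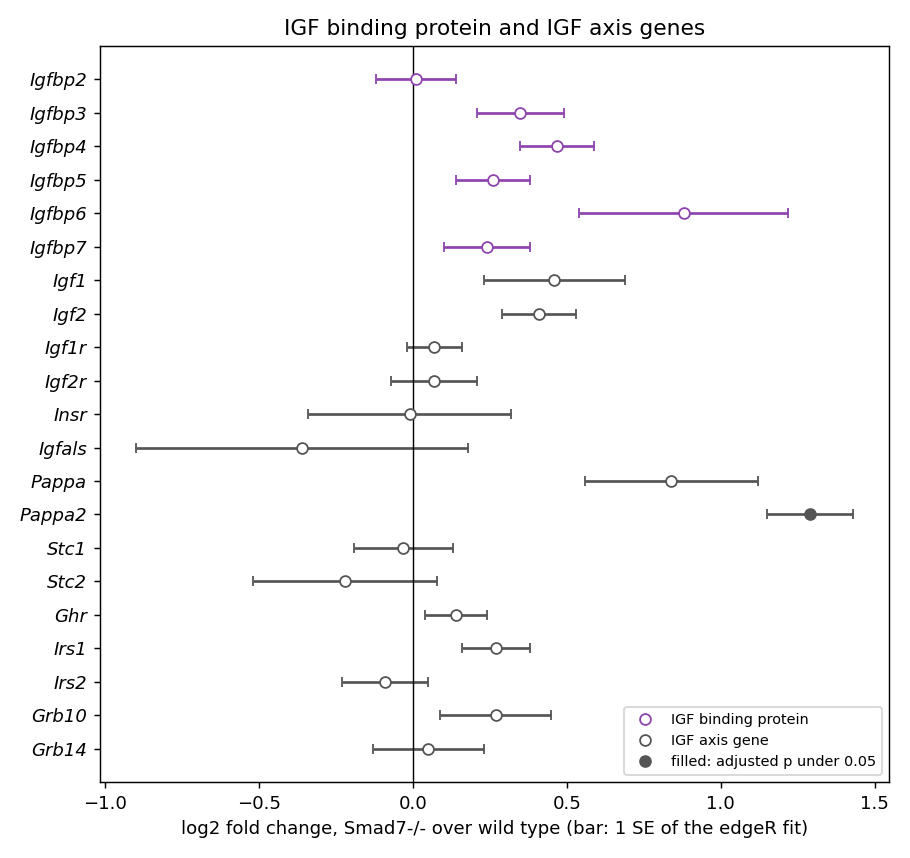
Log2 fold change, Smad7-/- over wild type, of the 6 tested IGF binding protein genes (purple) and 15 IGF axis genes (grey), with bars of 1 SE of the edgeR fit. Pappa2, at 1.29, is the filled point with an adjusted p under 0.05; Igfbp2 lies at 0.01 and the other binding protein genes between 0.24 and 0.88.

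Of 13 proteases known to cut IGF binding proteins 12 were tested, and Pappa2 alone passed, where 0.0131% of all tested genes were called higher. At an unadjusted p under 0.05 in edgeR, 3 lay higher (Pappa2, Pappa and Mmp9) and 0 lower, beside 3.26% of all genes higher. Pappa2 and Pappa are also in the IGF axis list, so the 2 lists are not separate results. The median log2 fold change was 0.12. The gelatinase genes Mmp9 and Mmp2 stood at 0.57 ± 0.20 and 0.09 ± 0.13, and Bmp1 and Adam9 at 0.05 ± 0.09 and 0.08 ± 0.10 (SE); leaving out wild-type library 1 took Mmp9 to 0.35. Of 13 other genes with an IGFBP-type cysteine-rich domain 12 were tested and 0 passed in edgeR, with 2 higher and 0 lower at an unadjusted p under 0.05 (5.14% of all genes in either direction); the median was 0.11. Ctgf, a matricellular relative of the binding proteins, stood at 0.70 ± 0.14 (SE; edgeR adjusted p = 0.521) and passed in DESeq2 (adjusted p = 0.00417). Igfbpl1, the closest in name, had 232, 202 and 221 CPM in Smad7-/- libraries, against 262, 265 and 219.5 CPM in wild type (log2 -0.19 ± 0.10 SE). Kazald1 and Wisp1, both known from bone-forming cells, stood at -0.10 ± 0.24 and 0.07 ± 0.17 (SE).

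**Figure D4:**
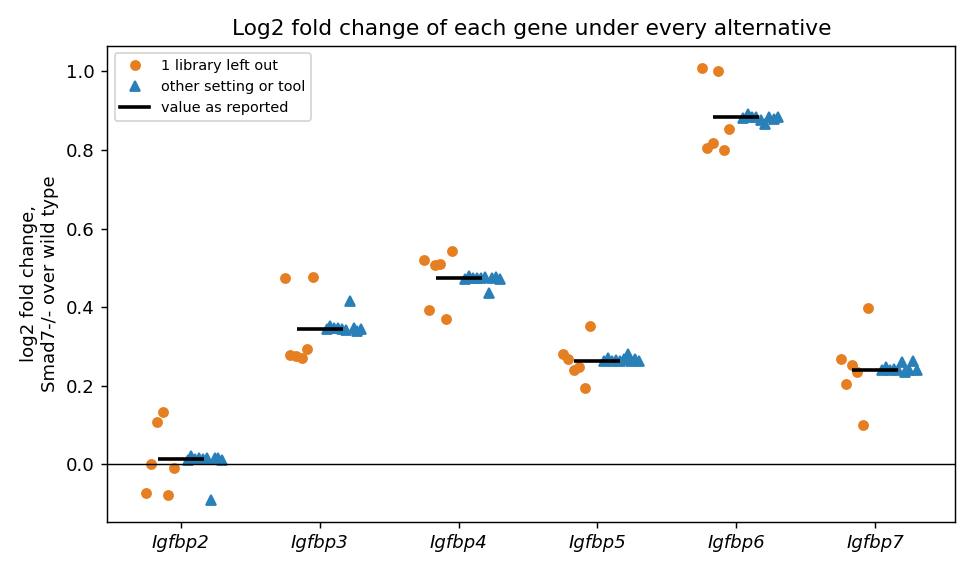
Log2 fold change of each tested member as reported (black line), in fits without 1 library (orange) and under other settings or tools (blue). Values for Igfbp3 to Igfbp7 stay above 0, from 0.10 for Igfbp7 to 1.01 for Igfbp6, and those of Igfbp2 lie on both sides of 0.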

How the data were processed

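Tables of raw counts per gene symbol were deposited by the authors, 1 per library, with no normalization. Reads were aligned with HISAT2, per the file headers, and featureCounts, DESeq2 and mm10 are named in the submitters' processing notes without versions. Libraries were made from 1 ug of total RNA with a TruSeq RNA kit, per the labels' protocols. Among 23420 symbols, 27 read as calendar dates and held at most 0.223% of a library's counts.

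All 6 libraries were fitted with no covariate by the quasi-likelihood test of edgeR 4.0.16 (R 4.3.3), after filterByExpr (minimum count 10, minimum total 15) and TMM scaling, with Benjamini-Hochberg adjustment over 15284 genes and a threshold of 0.05. The common dispersion was 0.0253. CPM use TMM library sizes, and errors of log2 fold changes are SE of the fit. TPM use merged exons of GENCODE M21, found for 23028 symbols with 99.4% of counts. Principal components and likeness use log2(CPM + 0.5), and within-set differences use log2 CPM with no pseudocount. Alternatives used DESeq2 1.42.0 and limma 3.58.1. On simulated data of 15284 genes the edgeR fit recovered 52% of genes changed 1.5-fold and 92.3% of those changed 2-fold, with 7.48% of calls false. The changed genes, 100 at each fold, were planted among genes of at least 5 CPM. Counts were drawn independently, without the split of the libraries seen here. Adjusted p also depends on how many genes change, so these rates need not hold for the real table, where 4 genes were called.

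The members, the 3 pathway lists and the 11 marker lists were chosen with earlier results of these data known. Genes named besides the members were, per pathway list, those past the threshold and the 4 highest per length in wild type, and for each member the 3 genes of highest r (at least 5 CPM, without numbered gene models); Smad7 was the check of the labels.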

Additional observations from a re-analysis of the deposited data

How the results depend on the processing

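No member was called under any of 16 alternatives, and Igfbp3 to Igfbp7 stayed above 0 in each in which they were tested. Igfbp2 reversed when the split between library sets was a covariate (-0.0911), within the first and second sets (-0.11 and -0.07) and in fits without 1 library (-0.0785 to 0.133); the cause was not tested. Kazald1 reversed with the split covariate (0.131) and ran from -0.332 to 0.117 without 1 library. Without 1 library Grb10 ran from 0.0464 to 0.419, Igf1 from 0.276 to 0.751, Mmp9 from 0.351 to 0.704, Pappa from 0.56 to 1.06, Igf1r from 0.000863 to 0.123, Adam9 from 0.0104 to 0.142, Irs2 from -0.229 to 0.00204, Mmp2 from -0.0808 to 0.168, Bmp1 from -0.0164 to 0.123 and Wisp1 from -0.0786 to 0.25. The 4 genes called over the whole table (2 higher, 2 lower) became 59 by DESeq2 (44 and 15) and 2 among genes averaging 5 CPM or more (1 and 1). With sex as a covariate 1 was lower. Without 1 library there were 1 to 7 (1 to 5 higher, 0 to 2 lower): 2, 1 and 7 without Smad7-/- library 1, 2 and 3. The summed level ratio was 0.289 with the longest transcript as length and 0.284 unscaled by length.

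The residuals of libraries with the same number correlated at 0.235, -0.0769 and 0.147, and 3 of 6 libraries correlated best with their own number. With 3 libraries per genotype these values cannot decide whether the numbers mark pairs, and the labels do not say. With the replicate number as a block in edgeR 4 genes were called, as without it. At an unadjusted p under 0.05 there were 1210 genes with the block and 786 without it. Igfbp4 stood at 0.477 with the block, with an edgeR adjusted p of 0.346. Depth limits what can be said of Igfbp1, with 0 to 6 counts, and Igfbp6, with 22 to 58.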
